A study of Gallus gallus with 9 samples.

Results

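Chicken liver at 5 weeks after hatching was compared with chicken liver at embryonic day 13, with 3 libraries at each age. These 6 libraries are taken from a series of 9, in which the remaining 3 come from birds aged 42 weeks. The 5-week birds are at the stage that the labels name rapid growth, and the day 13 livers are at the embryonic stage. The labels call the libraries of an age biological replicates and do not say whether each came from a separate animal. No source used here gives breed, sex, diet or treatment. The comparison asks how the liver's protein-coding messages (mRNAs) and long non-coding RNAs (lncRNAs) changed across hatching.

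The embryonic liver of a bird works on nutrients from the yolk, while the liver after hatching handles feed. In birds the liver is a main site of fatty acid synthesis, and it secretes most of the plasma proteins, so that a few messages for secreted proteins can make up much of its mRNA. A lncRNA is a long transcript with no recognised protein product, and most lncRNAs are present at far lower levels than mRNAs.

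Levels are in FPKM, a count of fragments relative to transcript length and to all mapped fragments. Because the scale is relative to the library, a feature can fall in FPKM when others rise. A fall in bulk tissue can also reflect fewer cells of a type or less RNA per cell, and these cannot be told apart. Genes are printed by their deposited identifiers, which none of the reference tables used here pair with names. The tissue label was therefore not tested against liver markers.

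Of the 13949 listed mRNAs, 11512 reached 1 FPKM in at least 3 of the 9 libraries and were tested, and of 4127 listed lncRNAs 2213 reached 0.5 FPKM and were tested. In all 6 compared libraries 9099 mRNAs and 558 lncRNAs were at those levels. A feature could also pass through one age alone, as 26 mRNAs and 22 lncRNAs did through 5 weeks. Through day 13 alone 425 mRNAs and 172 lncRNAs passed, so part of the counts of low features follows from the filter. Log2 differences are 5 weeks minus day 13 on the deposited log2(FPKM + 1) scale, which compresses changes near 0. A call, higher or lower, needed a limma adjusted p under 0.05 together with a log2 difference of at least 1 in size. The fit used all 9 libraries, so that SEs and p-values pool the spread of all 3 ages. Values that depend on scaling were computed as deposited and on a median-scaled basis, in which the FPKM of each library were multiplied by a factor that gave all 9 libraries the same median over the tested features. For mRNAs these factors were 1.16, 0.989 and 1.13 in the 5-week libraries and 0.710, 0.785 and 0.757 in the day 13 libraries. For lncRNAs they were 1.08, 0.996 and 1.18 at 5 weeks and 0.848, 0.923 and 0.812 at day 13.

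As deposited, the typical mRNA had a lower FPKM at 5 weeks than at day 13. The median over the listed mRNAs was 3.61, 4.25 and 3.68 FPKM in the 5-week libraries, against 6.12, 5.43 and 5.64 FPKM in the day 13 libraries. Summed FPKM were close, at 535744, 512028 and 533464 in the 5-week libraries and 551324, 538521 and 539281 in the day 13 libraries. The 5-week libraries were all lower than the day 13 libraries on both measures, by far more on the median. Outside the mRNAs that rank among the 100 most abundant of any of the 9 libraries, 13744 mRNAs summed to 179523 ± 4330 FPKM at 5 weeks and 243419 ± 11470 at day 13 (SD, n = 3 each), which is 26.2% less at 5 weeks. The corresponding deficit of the full sum was 2.94%. With 3 libraries against 3, the exact two-sided permutation test of a single value cannot give a p below 0.1, and it gave 0.1 for these 3 measures. The direction of both sums turned with scaling. After median scaling the 13744 mRNAs summed to 203446, 181816 and 203789 FPKM at 5 weeks and 181792, 183484 and 181949 at day 13. The ages then overlapped, with a 5-week mean at 107.6% of the day 13 mean (exact permutation p = 0.3). The full median-scaled sum was 578013 ± 62487 FPKM at 5 weeks and 407406 ± 15713 at day 13, higher in every 5-week library.

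As deposited, 31.5% of the tested mRNAs were called, 7.14% higher at 5 weeks and 24.3% lower. On the median-scaled basis 23.3% were called, 11.8% higher and 11.4% lower, with 1362 mRNAs higher and 1316 lower. The shift behind this change of balance was -0.46, the median log2 difference of all tested mRNAs as deposited, against -0.02 after median scaling. As deposited 72.1% of the tested mRNAs had a log2 difference below 0, and after median scaling 50.8%. Scaling to equal medians places the median difference close to 0 by construction. The near-even split around 0 follows from this, and the balance of calls after scaling follows in part. Libraries of the 2 ages did not overlap for 67.8% of the mRNAs after median scaling and for 71.6% as deposited. By direction these were 33.3% higher and 34.5% lower after median scaling, and 16.4% higher and 55.2% lower as deposited. Of the mRNAs called as deposited, 819 of 822 higher ones and 1316 of 2802 lower ones had the same call after median scaling, and 0 had the opposite call. The factors are larger in the 5-week libraries, so scaling moved differences upward, by less than the gap between opposite calls. An opposite call could therefore hardly arise, and higher calls were nearly bound to stay. As deposited, calls persisted without any 1 of the 6 compared libraries for 662 of the higher and 2302 of the lower mRNAs. On the median-scaled basis they did so for 1110 of 1362 and 1074 of 1316.

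**Figure D1:**
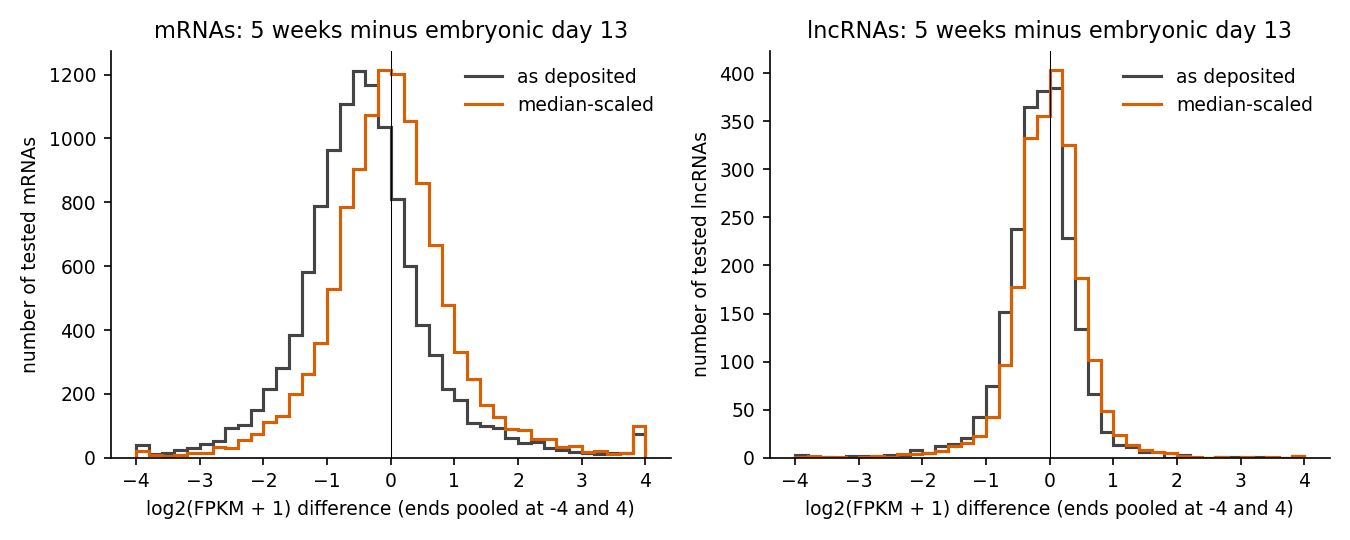
Number of tested mRNAs (left) and lncRNAs (right) by log2(FPKM + 1) difference, 5 weeks minus embryonic day 13, in bins of 0.2, as deposited and median-scaled. The mRNA distribution has its median at -0.46 as deposited and at -0.02 after median scaling, and the lncRNA distribution at -0.11 and 0.01. The medians close to 0 follow from the scaling.

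The largest changes of mRNAs were more often rises than falls, although falls were the more frequent call as deposited. Among called mRNAs, a log2 difference of at least 2 in size was found for 302 higher and 563 lower mRNAs as deposited, and for 439 and 270 after median scaling. At 3 or more the counts were 133 higher and 122 lower as deposited, and 166 and 61 after median scaling. At 4 or more they were 69 higher and 35 lower, and 91 and 14. At 5 or more they were 35 higher and 7 lower, and 45 and 4. The order of rises and falls thus turned with scaling at a size of 2 and kept its direction on both bases at 3, 4 and 5. The median size among called mRNAs was 1.68 for higher and 1.42 for lower ones as deposited, and 1.56 and 1.45 after median scaling. An mRNA with at least 1 FPKM in each 5-week library and under 0.1 FPKM in each day 13 library was found 41 times, and the reverse pattern 14 times. At 10 FPKM these counts were 6 and 0. After median scaling they were 59 and 8 at 1 FPKM, and 8 and 0 at 10 FPKM. The smallest deposited value above 0 is 0.1 FPKM, and the day 13 factors are all below 1. Day 13 values just above this floor therefore fall under the cutoff on scaling, which can account for part of the change. The table keeps only genes above 0 in at least 5 of the 9 libraries, which limits both counts, though not alike. A gene at 0 at day 13 and above 0 at both later ages could be listed. One above 0 at day 13 alone, or at 5 weeks alone, could not. This rule can also bear on the counts of large rises and falls.

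As deposited, the median change was negative at every level of expression. Classes were set by the mean log2 level over the 6 compared libraries, which favours neither age. The median log2 difference was -0.48 among 6323 mRNAs of 1 to 10 FPKM and -0.44 among 4025 of 10 to 100 FPKM. It was -0.53 among 437 of 100 to 1000 FPKM and -0.23 among 40 of at least 1000 FPKM. All of these lie below 0, as does the median of all tested mRNAs. After median scaling the same medians were -0.07, 0.07, 0.01 and 0.31. The interquartile range of the last class was -0.48 to 1.38, wide beside its median.

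Calls were more frequent among abundant mRNAs. As deposited, 31.8% of mRNAs of 1 to 10 FPKM and 30.5% of those of 10 to 100 FPKM were called, close to the 31.5% of all tested mRNAs. Of those of 100 to 1000 FPKM 41.2% were called and of the 40 of at least 1000 FPKM 47.5%. After median scaling the shares of the first 3 of these classes were 22.9%, 22.9% and 35.2%, against 23.3% of all tested. In the class of 100 to 1000 FPKM, 56 mRNAs were higher and 124 lower as deposited, and 99 and 55 after median scaling. In the class of at least 1000 FPKM, 8 were higher and 11 lower as deposited, and 12 were higher and 6 lower after median scaling. Which direction prevails in these classes therefore depended on the scaling. It also depended on how the class was set. When the day 13 mean set the top class, 4 mRNAs were higher and 24 lower as deposited, and when the 5-week mean set it, 24 were higher and 6 lower, since a class set at one age collects the mRNAs that are high at that age. When the arithmetic mean FPKM over the 6 libraries set it, a rule chosen after the data were seen, 18 were higher and 15 lower as deposited. The class under 1 FPKM held 687 tested mRNAs, of which 75 were higher and 111 lower as deposited. Of these 687, 251 were at the filter in all day 13 libraries and in none at 5 weeks, and 85 the other way round, so their counts follow in part from the filter.

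**Figure D2:**
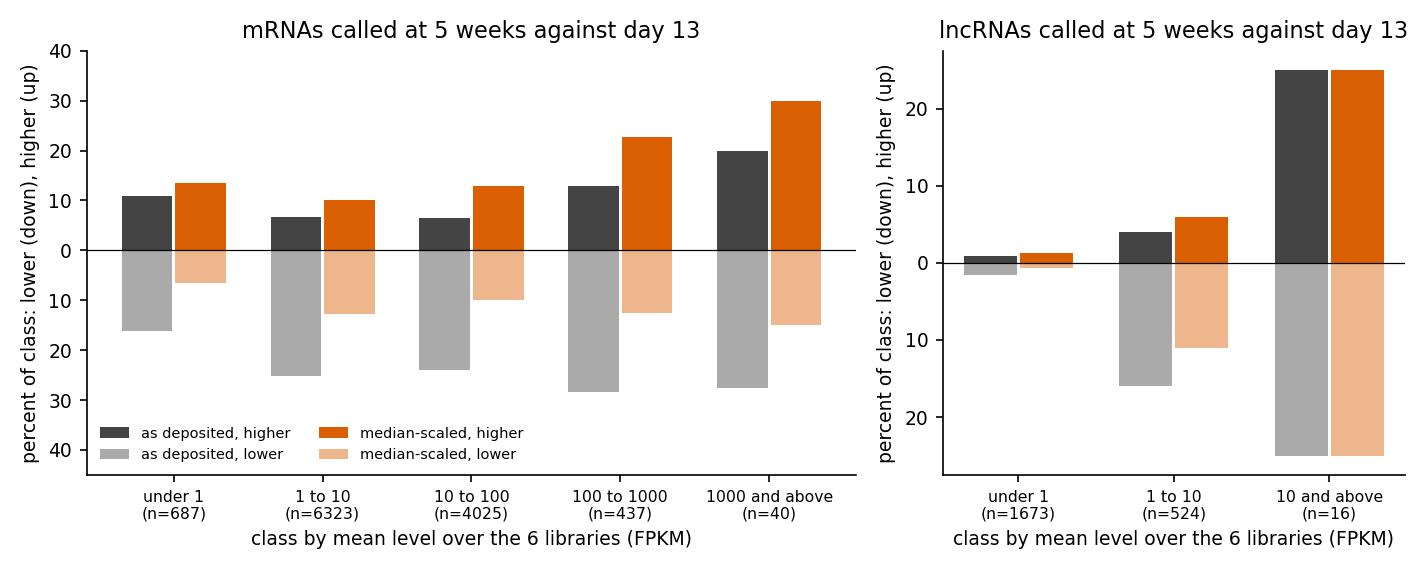
Percent of tested mRNAs (left) and lncRNAs (right) called higher (up) or lower (down) at 5 weeks than at embryonic day 13, by class of mean level over the 6 libraries in FPKM, as deposited (grey) and median-scaled (orange). Of mRNAs of 100 to 1000 FPKM, 12.8% were higher and 28.4% lower as deposited, and 22.7% and 12.6% after median scaling.

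The 5-week mRNA signal was concentrated on fewer genes. The share of a library's summed FPKM held by features of given rank does not change when the library is multiplied by a factor, so these values are the same as deposited and median-scaled. The 10 most abundant mRNAs of each library held 38.0%, 35.6% and 36.9% in the 5-week libraries, against 28.0%, 30.7% and 30.3% in the day 13 libraries. The 100 most abundant held 61.8%, 58.9% and 60.7% at 5 weeks and 49.4%, 52.5% and 51.2% at day 13. The 1000 most abundant held 83.0% ± 1.5 at 5 weeks and 77.2% ± 1.0 at day 13 (SD, n = 3 each). The ages did not overlap on any of these 3 shares (exact permutation p = 0.1, the smallest possible). For 25% of the sum 4 mRNAs were needed in each 5-week library and 6, 4 and 5 at day 13, which overlapped (exact permutation p = 0.4). At 5 weeks 33, 43 and 38 mRNAs together held 50% of the sum, against 106, 81 and 91 at day 13. For 90% of the sum 2260 ± 271 mRNAs were needed at 5 weeks and 3170 ± 134 at day 13. Apart from the number for 25%, equal in all 5-week libraries, the second 5-week library lay nearest to the day 13 libraries in each value given by library.

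The single most abundant mRNA was the same at both ages and did not pass the test. ENSGALG00000035219, singled out after its values were seen, was at rank 1 in all 6 libraries. It had 66163, 68532 and 78893 FPKM in the 5-week libraries, against 54833, 71678 and 74376 FPKM in the day 13 libraries. As deposited the 2 ages overlapped, and the log2 difference was 0.10 ± 0.49 (SE; adjusted p = 0.88 in limma). After median scaling every 5-week library lay above every day 13 library. The log2 difference was then 0.64 (limma adjusted p = 0.33), again not called. It held 12.3%, 13.4% and 14.8% of the sum at 5 weeks and 9.95%, 13.3% and 13.8% at day 13.

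**Figure D3:**
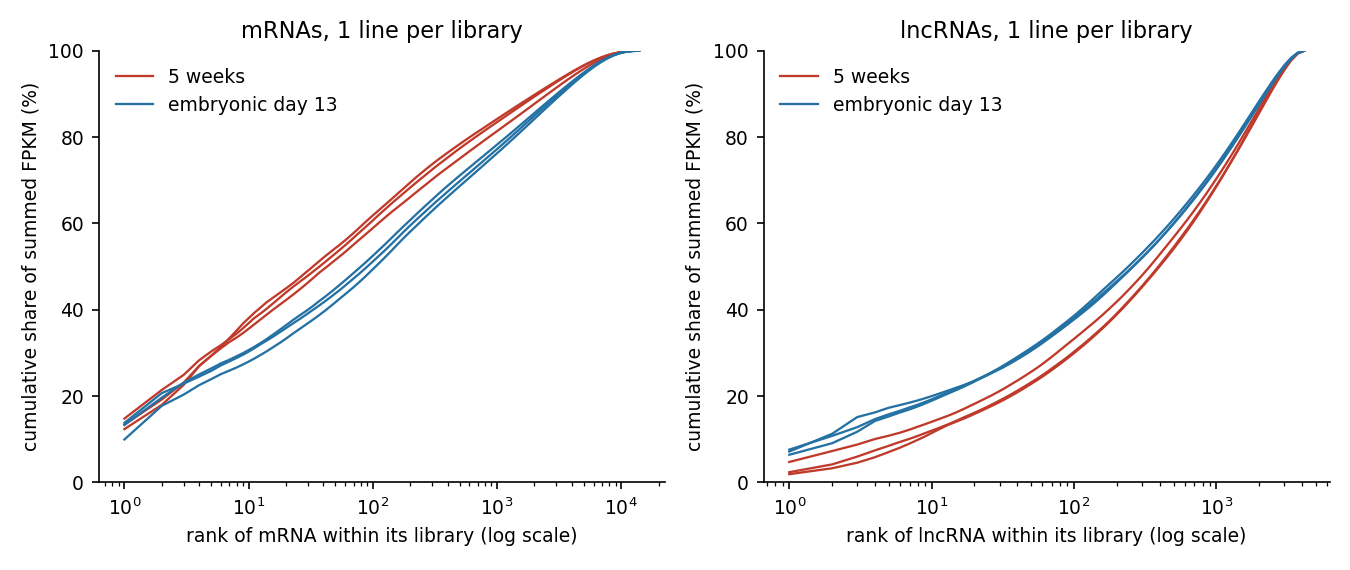
Cumulative share of summed FPKM against rank within the library (log scale), 1 line for each 5-week and each day 13 library, for mRNAs (left) and lncRNAs (right). At rank 100 the 5-week mRNA lines lie at 58.9 to 61.8% and the day 13 lines at 49.4 to 52.5%, while for lncRNAs the 5-week lines lie at 29.9 to 33.3% and the day 13 lines at 37.7 to 38.6%.

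By level within each library, the gain went to mRNAs of at least 1000 FPKM. As deposited, they held 54.6%, 51.9% and 54.4% of the sum in the 5-week libraries, against 43.3%, 46.3% and 44.2% in the day 13 libraries. Their number overlapped, with 52, 52 and 57 at 5 weeks and 58, 57 and 52 at day 13. The classes of 100 to 1000 FPKM and of 10 to 100 FPKM held less at 5 weeks, 22.9% ± 0.3 and 18.3% ± 1.5 against 26.8% ± 0.7 and 23.7% ± 1.0 at day 13. They also held fewer mRNAs, 427 ± 8 and 3594 ± 208 at 5 weeks and 522 ± 19 and 4578 ± 169 at day 13. Below 1 FPKM stood 3723 ± 238 mRNAs at 5 weeks and 2945 ± 126 at day 13, with 0.270% and 0.213% of the sum. Shares and numbers set by a fixed FPKM change with scaling. After median scaling mRNAs of at least 1000 FPKM held 57.9%, 51.4% and 56.3% at 5 weeks and 38.8%, 42.5% and 40.7% at day 13, and they numbered 71, 49 and 68 at 5 weeks and 37, 39 and 36 at day 13. The classes of 100 to 1000 and of 10 to 100 FPKM again held less at 5 weeks, 22.0% ± 1.1 and 18.0% ± 1.7 against 27.8% ± 0.4 and 24.6% ± 1.2 at day 13, but more mRNAs, 458 ± 26 and 3813 ± 32 against 402 ± 7 and 3758 ± 36 at day 13. Below 1 FPKM the numbers then overlapped, at 3546 ± 63 at 5 weeks and 3464 ± 52 at day 13, and the share was lower at 5 weeks, 0.240% against 0.324%. By mean FPKM, 53 mRNAs at 5 weeks and 55 at day 13 stood at 1000 or above as deposited, and 62 and 38 after median scaling. Classes formed in each library need not hold the same mRNAs at each age. With classes fixed by the mean level over the 6 libraries, shares do not change with scaling. The fixed class of 100 to 1000 FPKM then held 28.3% at 5 weeks and 28.2% at day 13, which overlapped (exact permutation p = 0.8). The fixed class of 10 to 100 FPKM again held less at 5 weeks, 20.4% against 24.8%, as did the lower classes. That of at least 1000 FPKM held more in every 5-week library.

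Gains of share were carried by few mRNAs and losses by many. In mean share, 4345 mRNAs gained and 9604 lost a total of 33.0 percentage points each way. This total counts every listed mRNA, called or not, and was not compared with differences among same-age libraries. Large gains by a few mRNAs also lower the shares of all others. The 10 largest gains made up 47.1% of all gains, and the 10 largest losses 24.3% of all losses. The 100 largest gains made up 82.4% and the 100 largest losses 50.5%. Reaching 50% of the total took 12 gaining and 97 losing mRNAs. Among the 20 largest gains 17 were called higher as deposited and 18 after median scaling, and among the 20 largest losses 17 and 14 were called lower. These ranks and calls rest on the same libraries, so nothing is read from the match between them.

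The lists of most abundant mRNAs were replaced in part. Of the 20 mRNAs with the highest mean FPKM at each age, 11 were the same. The 9 found only at 5 weeks had a median rank of 400 at day 13 and a lowest rank of 1065. The 9 found only at day 13 had a median rank of 45 at 5 weeks and a lowest rank of 173. In this list of 20 the newcomers thus came from further down than those that left. Of the 100 most abundant, 55 were the same, and of the 1000 most abundant 695. The median ranks lay closer in these longer lists. They were 227 for newcomers and 170 for those that left the list of 100, and 1833 and 1625 for the list of 1000.

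Moves between classes also differed in size by direction. With each mRNA classed by its mean FPKM at each age, 70.1% of the 13949 listed mRNAs kept their class as deposited, 1092 moved up and 3080 moved down. After median scaling 74.2% kept their class, 1843 moved up and 1762 down, so the balance of all moves depended on scaling. The near-equal numbers after scaling follow in part from the equal medians. Moves of 2 or more classes were upward for 80 mRNAs and downward for 48 as deposited, and upward for 106 and downward for 24 after median scaling. As deposited, 10 mRNAs stood at 10 to 100 FPKM at day 13 and at 1000 FPKM or more at 5 weeks, and 9 stood under 1 FPKM at day 13 and at 100 to 1000 FPKM at 5 weeks. The corresponding falls were 2 and 1. The other such moves were more even. Between under 1 and 10 to 100 FPKM, 46 rose and 34 fell, and between 1 to 10 and 100 to 1000 FPKM, 15 rose and 11 fell.

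**Figure D4:**
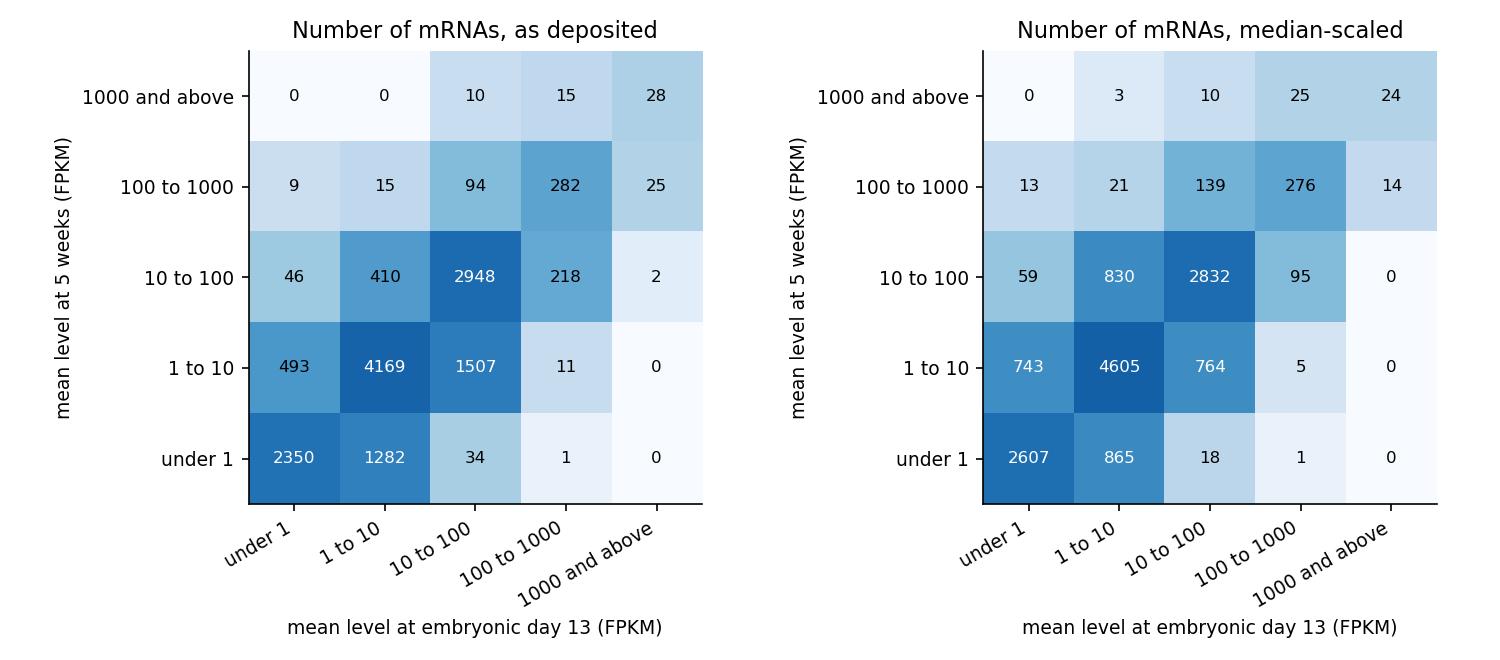
Number of listed mRNAs by class of mean FPKM at 5 weeks (rows, highest on top) and at embryonic day 13 (columns), as deposited (left) and median-scaled (right), with colour on a log scale. Most mRNAs lie on the diagonal, and as deposited 1507 stood at 1 to 10 FPKM at 5 weeks and 10 to 100 FPKM at day 13, while 410 stood the other way round.

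The mRNAs with the largest changes of share were identified among those called alike on both bases with no overlap between the ages, so the separation of those named, lncRNAs included, was set by the choice. ENSGALG00000009262 had 23471, 19999 and 18603 FPKM in the 5-week libraries, against 3957, 4414 and 3995 FPKM in the day 13 libraries. All 5-week libraries were high and the ages lay far apart. Its log2 difference was 2.32 ± 0.29 as deposited (SE; limma adjusted p = 6.4e-05) and 2.86 ± 0.28 median-scaled (adjusted p = 4e-05). Its share was 3.92% ± 0.45 at 5 weeks and 0.759% ± 0.054 at day 13.

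ENSGALG00000009268 had 24766, 19789 and 18125 FPKM at 5 weeks, against 6445, 7450 and 6937 FPKM at day 13. The first 5-week library was the highest for both of these genes. The log2 difference was 1.58 ± 0.31 as deposited (adjusted p = 0.0012) and 2.12 ± 0.31 median-scaled (adjusted p = 0.00037), but 0.83 with an adjusted p of 0.052 after quantile normalization, where the call was lost. Its share was 3.96% ± 0.62 at 5 weeks and 1.28% ± 0.11 at day 13, so that together these 2 mRNAs gained 5.85 of the 33.0 percentage points. In the 42-week libraries ENSGALG00000009262 had 3485, 3607 and 4957 FPKM and ENSGALG00000009268 had 4215, 4490 and 6164 FPKM.

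On the losing side, ENSGALG00000006453 had 4297, 5187 and 2218 FPKM at 5 weeks, against 14315, 18631 and 11811 FPKM at day 13. All 5-week libraries were below all day 13 libraries. The log2 difference was -2.0 ± 0.37 as deposited (adjusted p = 0.00092) and -1.46 ± 0.39 median-scaled (adjusted p = 0.0099). ENSGALG00000004129 had 2336, 3005 and 3851 FPKM at 5 weeks, against 12096, 10333 and 8878 FPKM at day 13. No 5-week library reached the day 13 levels. On the log2 scale it differed by -1.79 ± 0.27 as deposited (adjusted p = 0.00024) and -1.24 ± 0.28 median-scaled (adjusted p = 0.0043). Both remained among the most abundant mRNAs, at ranks 14 and 16 by mean FPKM at 5 weeks, against ranks 3 and 4 at day 13.

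**Figure D5:**
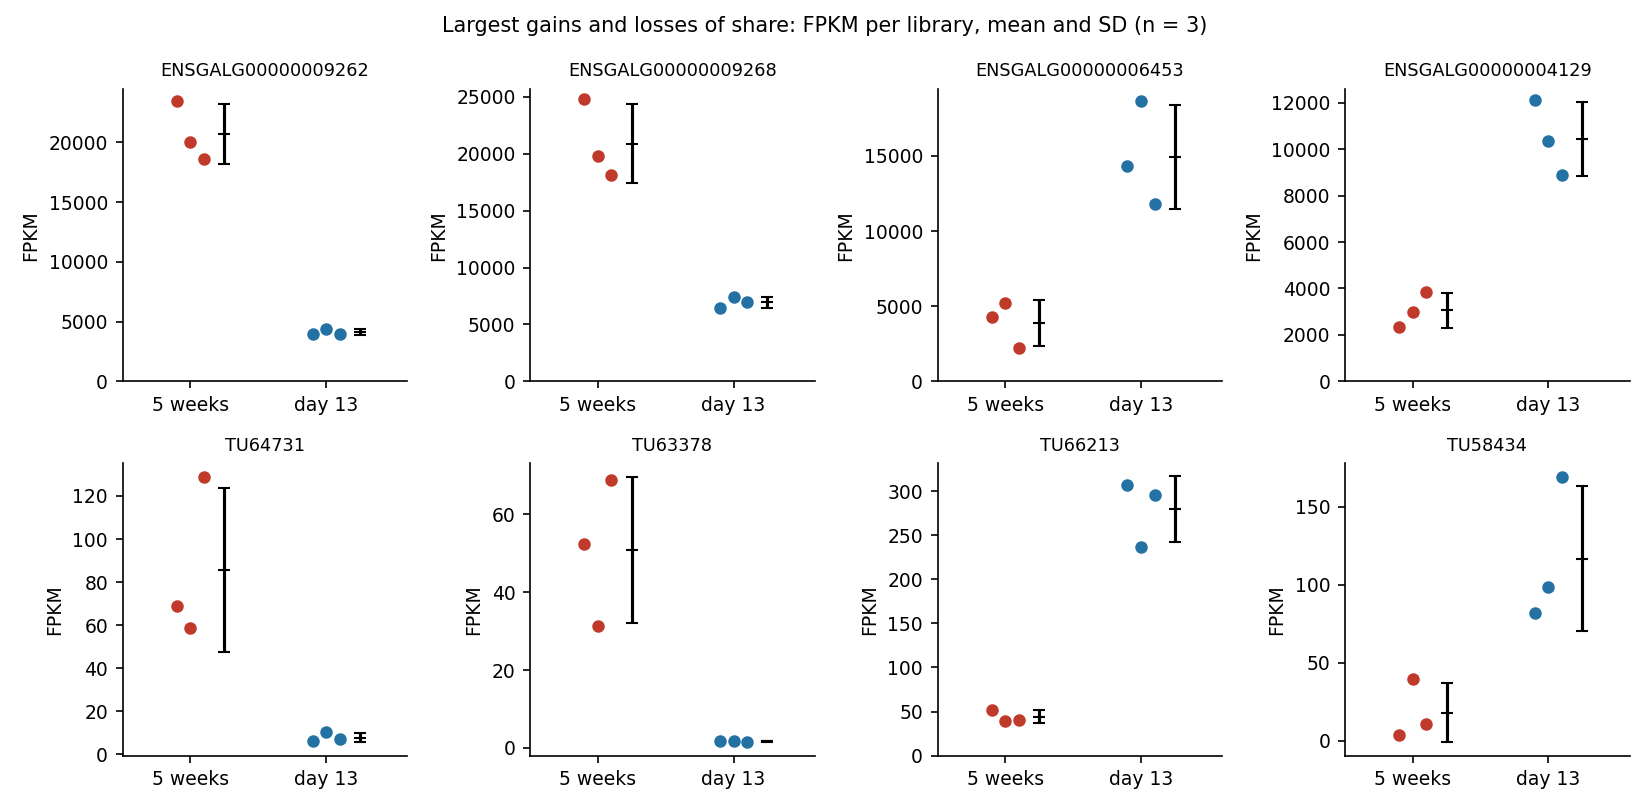
FPKM in each 5-week library and each day 13 library (points) with mean and SD (n = 3) for the 2 mRNAs (top) and 2 lncRNAs (bottom) with the largest gain of share (left) and loss of share (right) among those called, with no overlap between the ages, on both bases. The separation in each panel follows from that choice, and TU66213 is shown with 39.3 to 52.3 FPKM at 5 weeks and 236 to 307 FPKM at day 13.

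The lncRNAs changed in the opposite way in their concentration, with the 5-week signal spread over more of them. The 20 most abundant lncRNAs held 16.1%, 15.9% and 18.2% of the summed lncRNA FPKM in the 5-week libraries, against 23.5%, 23.4% and 23.5% in the day 13 libraries. The 5-week libraries were all lower (exact permutation p = 0.1, the smallest possible). Most of this difference lay in the first ranks. In mean share, 5 weeks minus day 13 was -4.0 percentage points for the most abundant lncRNA of each library. It was -6.9 for the 10, -6.7 for the 20 and -7.0 for the 100 most abundant. The share of 1 lncRNA, TU66213, at rank 1 in every day 13 library, changed by -5.53 percentage points. The contrast in these shares thus rests largely on this lncRNA, and shares without it were not computed. At 5 weeks 392, 399 and 340 lncRNAs held 50% of the sum, against 259, 241 and 261 at day 13. As deposited, those of at least 10 FPKM in a library numbered 18, 19 and 19 at 5 weeks and 35, 32 and 29 at day 13, and they held 16.3% ± 1.4 and 27.0% ± 0.9 of the sum. LncRNAs under 1 FPKM in a library held 43.1% ± 0.8 at 5 weeks and 33.3% ± 1.1 at day 13. The summed lncRNA FPKM was 2903, 3074 and 2720 at 5 weeks and 4046, 3691 and 4124 at day 13, a deficit of 26.7% as deposited. After median scaling the sums were 3125, 3062 and 3206 FPKM at 5 weeks and 3431, 3405 and 3348 at day 13, a deficit of 7.78%. On that basis lncRNAs of at least 10 FPKM overlapped in number, with 19, 19 and 23 at 5 weeks and 24, 30 and 20 at day 13, and held 16.85% ± 2.0 and 24.97% ± 1.5 of the sum. Those under 1 FPKM then held 41.3% ± 1.1 at 5 weeks and 36.8% ± 0.3 at day 13.

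Few lncRNAs were called. All listed lncRNAs were above 0 in all 9 libraries, so a lncRNA at exactly 0 in any library was not listed, which limits these counts. The smallest listed value is 9.98e-07 FPKM, so lncRNAs with almost no signal in a library could be listed. As deposited 1.81% of the tested lncRNAs were called higher and 5.20% lower, and after median scaling 2.58% and 3.34%, which is 57 higher and 74 lower. Libraries of the 2 ages did not overlap for 49.3% of the tested lncRNAs as deposited, 15.7% higher and 33.6% lower. After median scaling this was 51.6%, with 25.2% higher and 26.4% lower. The median log2 difference was -0.11 as deposited and 0.01 after median scaling, where the scaling itself places it close to 0. Calls were more frequent at higher levels, which follows in part from the call rule. A difference of 1 on the log2(FPKM + 1) scale is hard to reach for lncRNAs under 1 FPKM. As deposited 15 lncRNAs were higher and 27 lower among 1673 under 1 FPKM, which is 2.51%. Of these 1673, 282 were at the filter in all day 13 libraries and in none at 5 weeks, and 106 the other way round. Their counts therefore follow in part from the filter. The log2(FPKM + 1) scale compresses low values. Over all tested lncRNAs as deposited, an offset of 0.1 FPKM in place of 1 gave 179 higher and 417 lower, against 40 and 115. With the offset of 1, the limma adjusted p alone, without the rule on size, gave 193 higher and 509 lower. Of the 524 lncRNAs of 1 to 10 FPKM, 21 were higher and 84 lower as deposited, and 31 and 58 after median scaling. Among the 16 most abundant, 4 were higher and 4 lower on both bases. Calls persisted without any 1 of the 6 compared libraries for 24 of 40 higher and 83 of 115 lower lncRNAs as deposited, and for 36 of 57 and 54 of 74 after median scaling.

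Here losses of share were carried by few lncRNAs and gains by many. In mean share, 2370 lncRNAs gained and 1757 lost a total of 37.6 percentage points each way. This total counts every listed lncRNA, called or not, and was not compared with differences among same-age libraries. As deposited, the 40 called higher gained 10.4 percentage points and the 115 called lower lost 23.8. A large loss by 1 lncRNA also raises the shares of all others. The 10 largest losses made up 40.1% of all losses and the 10 largest gains 22.0% of all gains. Reaching 50% of the total took 28 losing and 145 gaining lncRNAs. Of the 20 most abundant lncRNAs 7 were the same at both ages, and of the 100 most abundant 52.

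TU66213, the most abundant lncRNA at day 13, had 52.3, 39.3 and 40.8 FPKM in the 5-week libraries, against 307, 236 and 295 FPKM in the day 13 libraries. It was low in all 5-week libraries and still at rank 3 there. The log2 difference was -2.64 ± 0.38 as deposited (SE; limma adjusted p = 0.00058) and -2.31 ± 0.34 median-scaled (adjusted p = 0.0012). Its share of 1.53% ± 0.26 at 5 weeks, against 7.05% ± 0.60 at day 13, was the largest single loss. TU58434 had 3.61, 39.4 and 10.4 FPKM at 5 weeks, against 81.6, 98.8 and 169 FPKM at day 13. Its 5-week libraries differed widely, with the second well above the others. The log2 difference was -3.12 ± 0.71 (adjusted p = 0.0082). Leaving out the first 5-week library gave -2.38, and leaving out the second gave -3.95. The call was lost after quantile normalization at an adjusted p of 0.053 and against a 1.5-fold change at 0.067.

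TU64731 had 68.9, 58.8 and 129 FPKM in the 5-week libraries, against 6.16, 10.2 and 6.96 FPKM in the day 13 libraries. Its rank by mean FPKM was 1 at 5 weeks and 43 at day 13, and the ages did not overlap. The log2 difference was 3.24 ± 0.91 (adjusted p = 0.021). The call was lost without the third 5-week library (adjusted p = 0.071), without the first day 13 library (0.061) and without the third day 13 library (0.058). It was also lost with an offset of 0.1 FPKM (0.059) and against a 1.5-fold change (0.15). Its SE pools the spread at 42 weeks, where it had 15.8, 29.1 and 0.287 FPKM, and in a fit to the 6 compared libraries the adjusted p was 0.0006. TU63378 had 52.4, 31.2 and 68.8 FPKM at 5 weeks, against 1.85, 1.74 and 1.42 FPKM at day 13. Its rank was 2 at 5 weeks and 345 at day 13. Its log2 difference was 4.21 ± 0.31 as deposited (adjusted p = 1.1e-05) and 4.45 ± 0.33 median-scaled (adjusted p = 2.5e-05).

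Libraries varied more at 5 weeks than at day 13. Over the tested mRNAs the median SD among same-age libraries was 0.19 (log2) at 5 weeks and 0.15 at day 13, and 0.18 and 0.13 after median scaling. Among mRNAs of at least 1000 FPKM it was 0.22 and 0.14 as deposited and 0.30 and 0.17 after median scaling. Among lncRNAs of at least 10 FPKM it was 0.52 at 5 weeks and 0.20 at day 13. In all 5 mRNA classes and all 3 lncRNA classes the 5-week median SD was the larger one on both bases. Whether this difference exceeds what 3 libraries give was not tested.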

How the data were processed

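The authors deposited 1 table of mRNAs and 1 table of lncRNAs with log2 values of FPKM for each library, read here as log2(FPKM + 1). In the mRNA table the smallest value above 0 is 0.1 FPKM, and 5041 of 125541 values are exactly 0. For lncRNAs the offset was assumed. Tools named per the submitters' processing notes, without roles, are DESeq2, Cufflinks 2.2.1, StringTie 1.3.3 and HISAT. No source used here gives the build or annotation. Per the labels' protocols, TruSeq libraries were made from TRIzol-extracted total RNA. No read counts are given, and low values shared no common step (at most 5 of 59 mRNAs and 7 of 83 lncRNAs in 1 ratio), so depth is unknown.

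Of the identifiers, 0 matched the reference gene table, so gene lists by symbol and sequences were not used. All adjusted p-values are two-sided Benjamini-Hochberg values per table from limma 3.58.1 (R 4.3.3), with age means fitted to the 9 libraries and a variance trend. Median scaling multiplied FPKM, which keeps 0 at 0. The fit was tested on simulated data. Named features had the 2 largest gains or losses of mean share per table, among those called alike and not overlapping on both bases. The features, classes and lists were chosen with earlier results of these data known. P-values from limma weigh the age difference against the spread between same-age libraries, which may in part be technical. Alternatives were other scalings, filters, offsets, call rules and class rules, the replicate number as a block, and leaving out each compared library.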

Additional observations from a re-analysis of the deposited data

How the results depend on the processing

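Of 322 values of counts, medians and shares under an alternative, 211 stayed close to the reported one, and the others follow. For a count, close meant within a factor of 1.5, so some values that follow were labelled close. The alternatives include settings that change the fit little, such as the block and no variance trend. The mRNA counts higher and lower were 1362 and 1316 after median scaling, 1498 and 1269 after shifting the log2 values to 1 median, 1270 and 1380 after quantile normalization, 1224 and 1477 after upper-quartile scaling, 1208 and 1482 with the same sum outside the most abundant mRNAs, and 840 and 2600 with the same full sum. Of the 822 and 2802 deposited calls, 813 and 1222 held under all 7 scalings. The median log2 difference under the first 5 of these scalings was -0.017, 0.014, -0.038, -0.091 and -0.098; it was -0.356 with no filter and -0.552 with an offset of 0.1 FPKM. The adjusted p alone gave 1401 and 5396 mRNAs as deposited and 3099 and 3268 median-scaled. For lncRNAs, with 40 higher and 115 lower as deposited, the counts were 57 and 74 after median scaling, 58 and 74 after upper-quartile scaling, 56 and 72 after quantile normalization and 64 and 65 with the same full sum. They were 91 and 229 with an offset of 0.5 FPKM, 179 and 417 with 0.1 FPKM, 193 and 509 by the adjusted p alone, and 15 and 56 against a 1.5-fold change. Median-scaled, these last 4 settings gave 136 and 139, 274 and 267, 305 and 347, and 21 and 35. Under all 7 scalings 39 and 63 lncRNAs held. The lncRNA median of -0.113 was 0.009 after median scaling, 0.015 after the log2 shift, 0.017 after quantile normalization, 0.008 after upper-quartile scaling, 0.051 with the same full sum, -0.009 with the same sum outside the most abundant, -0.058 with no filter, -0.222 with the stricter filter (-0.042 median-scaled), -0.263 with an offset of 0.1 FPKM and -0.163 with 0.5 FPKM.

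Class counts followed the age that set the class. By the day 13 mean, in rising order of class, 282, 355, 150, 31 and 4 mRNAs were higher and 0, 1127, 1450, 201 and 24 lower as deposited, and 321, 595, 372, 66 and 8 higher and 0, 513, 683, 105 and 15 lower median-scaled. By the 5-week mean they were 0, 341, 360, 97 and 24 higher and 610, 1481, 631, 74 and 6 lower, and 2, 524, 649, 156 and 31 higher and 386, 684, 219, 24 and 3 lower. By the arithmetic mean FPKM, a rule chosen after seeing the data, they were 36, 389, 310, 69 and 18 higher and 55, 1472, 1118, 142 and 15 lower, and 50, 604, 572, 113 and 23 higher and 17, 711, 510, 70 and 8 lower. For the 3 lncRNA classes the day 13 mean gave 31, 8 and 1 higher and 0, 96 and 19 lower as deposited, and 41, 15 and 1 higher and 0, 58 and 16 lower median-scaled. The 5-week mean gave 0, 34 and 6 higher and 78, 34 and 3 lower, and 1, 49 and 7 higher and 54, 17 and 3 lower. The arithmetic mean gave 9, 26 and 5 higher and 13, 95 and 7 lower, and 17, 35 and 5 higher and 2, 65 and 7 lower. Over tested features alone the 10 most abundant lncRNAs held 15.1% at 5 weeks and 22.5% at day 13. The cause of these changes was not tested, beyond what the settings fix.

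Without any 1 compared library the deposited counts were 749 to 849 mRNAs higher and 2631 to 2964 lower, and 33 to 41 lncRNAs higher and 111 to 123 lower. With the replicate number as a block 830 mRNAs were higher and 2803 lower, and 42 and 116 lncRNAs. The sample titles link same-numbered libraries of the 2 ages only by that number. Their deviations correlated at -0.03, -0.003 and 0.02 across mRNAs as deposited. Of the 5-week libraries only the third correlated best with its own number. Whether same-numbered libraries were handled together was not tested. The block changed no call of a named feature. Named features kept their call in 160 of 168 alternatives, and the exceptions were 5 for TU64731, 2 for TU58434 and 1 for ENSGALG00000009268. Some of these outcomes were fixed in advance. The features were chosen as called on both bases, so median scaling could not lose a call, and neither could the adjusted p alone. Precision is limited by 3 libraries an age and by the unknown depth, and the log2(FPKM + 1) scale compresses changes of lncRNAs near 0.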
